A study of Mus musculus with 24 samples.

Results

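Epididymal fat of mice on a high-fat diet (HFD) was compared between animals given an adeno-associated virus (AAV) for irisin and animals given the same kind of virus for green fluorescent protein (GFP). The comparison uses 6 of the 24 RNA sequencing libraries of the series, 3 of epididymal white adipose tissue (eWAT) per vector, and the 14855 of 54532 annotated genes that reached 0.5 FPKM (fragments per kilobase of gene, scaled to sequencing depth) in at least 3 of those 6. All mice were C57BL6. The compared groups are eWAT from mice given AAV-irisin and HFD for 18 weeks and eWAT from mice given AAV-GFP and HFD for 18 weeks. The 6 eWAT libraries of mice on normal chow for 18 weeks (3 AAV-irisin, 3 AAV-GFP) and the 6 HFD libraries of inguinal fat (iWAT) serve as references. No group is free of virus. The age of the mice, the virus dose, its route and the promoter that drives irisin are not given in the sources used here, nor is it stated that the 3 libraries of a group come from separate mice, so p-values measure only the spread between libraries.

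Irisin is a hormone cleaved from the membrane protein FNDC5, best known from exercising muscle, and integrins that contain the αV chain have been described as its receptors. Epididymal fat lies in the abdomen and, in obese mice, fills with macrophages. Those that gather around dying adipocytes take up lipid and express Trem2, Cd9 and Gpnmb, whereas macrophages resident in lean fat express Lyve1, Timd4 and Cd163, and interleukins 4 and 13, acting through the factor STAT6, induce genes such as Retnla and Mgl2. The title of the series names interleukin 33 (Il33) and its receptor ST2 (Il1rl1), a pathway that supports regulatory T cells and type 2 immune cells in visceral fat.

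Fndc5 was the first gene examined, because the vector carries its product. Fndc5 (chr4:129136999-129144593, plus strand) measured 3.22, 3.13 and 1.44 FPKM in GFP libraries 1, 2 and 3 and 3.32, 4.94 and 1.04 FPKM in irisin libraries 1, 2 and 3. The groups overlapped, with a log2 fold change of 0.10 ± 0.45 (irisin minus GFP, SE; adjusted p = 0.948), and the value without irisin library 2 was -0.29. The sources used here do not say whether vector transcripts would be counted to this gene, so its level in fat does not test the label. Other irisin-related genes are described further on.

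The tissue label held for all 6 libraries: the adipocyte hormone Adipoq lay between 615 and 1835 FPKM, and Wt1, a factor of visceral fat and its mesothelium, between 1.19 and 3.91 FPKM, while Tbx15, a factor of subcutaneous fat, did not exceed 0.0896 FPKM. The libraries hold 15091342 to 18688706 reads on genes, so that a 2000-base gene at 1 FPKM has 27.8 to 38.6 reads. They were not equally alike. The median within-group SD of log2(FPKM + 0.5) was 0.148 among the GFP libraries and 0.275 among the irisin libraries, and the leading principal component, with 51.0% of the variance of the 6 libraries, set irisin library 2 apart from the rest.

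3 libraries stood apart for known genes. In irisin library 2 the genes furthest below the other 5 libraries included Spp1 (4.75 FPKM against 32.3 to 381), Gpnmb (45.1 FPKM against 231 to 744) and Mmp12 (17.2 FPKM against 84.1 to 498), all products of lipid-laden macrophages, and the genes furthest above them included Cyp2e1 (604 FPKM against 19.9 to 76.1), Timp4 (98.7 FPKM against 7.65 to 18.4) and Acta1 (90.1 FPKM against 9.79 to 13.2). Its summed pan-macrophage FPKM was 1723 against 5224 to 7898 in the other 5. GFP library 3 holds transcripts of the epididymis, the sperm duct beside this fat pad: 20 epididymis genes summed to 7076 FPKM there and to at most 0.311 FPKM in the others, and Adam7 measured 291 FPKM there and 0 in the other 5. None of those 20 genes passed the expression filter, but Defb25 (553 FPKM in that library and at most 1.40 elsewhere) and Lcn2 (236 against at most 7.31) did. Irisin library 3, singled out after its values were seen, was low in mesothelial genes such as Upk3b (5.62 FPKM against 26.3 to 66.5) and high in those of B lymphocytes and plasma cells such as Jchain (58.6 FPKM against 2.14 to 18.2).

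No gene was called at an adjusted p under 0.05 in limma (0 of 14855 genes, 0%; lowest adjusted p 0.266). At an unadjusted p under 0.05 stood 1472 genes (9.91%), of which 722 (4.86%) were higher and 750 (5.05%) lower with irisin, and limma's voom on recovered reads also called 0 genes, with 1633 at an unadjusted p under 0.05. The 3 irisin libraries all lay above the 3 GFP libraries for 1007 genes (6.78%) and all below them for 1066 genes (7.18%), 14.0% in all. The median log2 fold change was -0.01, with 7090 genes (47.7%) above and 7765 (52.3%) below 0. The count of genes at an unadjusted p under 0.05 depended on single libraries: it was 598 without irisin library 2, 3464 without irisin library 3, 787 without GFP library 1 and 853 without GFP library 3. Calls appeared when either of 2 libraries was left out, 12 without irisin library 3 and 5 without GFP library 2, and these genes are named below. All differences that follow are therefore values, not called changes, and groups are called apart where their 3 libraries do not overlap.

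Genes of resident and alternatively activated macrophages led the higher end. Retnla, a secreted protein that interleukins 4 and 13 induce (chr16:48842551-48844461, plus strand), measured 56.1, 43.9 and 49 FPKM in GFP libraries 1 to 3 and 501, 1358 and 147 FPKM in irisin libraries 1 to 3. Every irisin library exceeded every GFP library, irisin library 2 by the most, and the log2 fold change was 3.22 ± 0.61 (adjusted p = 0.352). The group means were 49.7 ± 6.15 and 669 ± 623 FPKM (SD, n = 3 each), so the irisin libraries differed widely among themselves. Ccl24, a chemokine that attracts eosinophils (chr5:135569937-135573049, minus strand), measured 1.27, 1.58 and 0.950 FPKM with GFP and 7.52, 7.21 and 3.30 FPKM with irisin, a log2 fold change of 1.82 ± 0.28 (adjusted p = 0.266). Lyve1, a hyaluronan receptor of resident macrophages and lymphatic vessels (chr7:110850607-110863239, minus strand), measured 6.59, 2.85 and 4.66 FPKM with GFP and 19.6, 27.4 and 9.75 FPKM with irisin, a log2 fold change of 1.85 ± 0.35. The groups were apart for all of these genes, and irisin library 3 was the lowest of the irisin libraries in each.

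Further genes of this kind, singled out after their values were seen, were also higher in every irisin library than in every GFP library. Cd163, the scavenger receptor for haemoglobin bound to haptoglobin, measured 8.82, 8.91 and 5.86 FPKM with GFP and 23.7, 34.7 and 12.4 FPKM with irisin. Timd4, a receptor for phosphatidylserine on dying cells, measured 0.392, 0.350 and 0.360 FPKM with GFP and 1.38, 1.39 and 1.70 FPKM with irisin, with irisin library 3 the highest. All 3 GFP values of Timd4 are under 0.5 FPKM, so it passed the filter only through the irisin libraries and had to differ, and its value supports nothing further. Mgl2, a C-type lectin with the near-identical neighbour Clec10a, measured 6.77, 4.08 and 4.65 FPKM with GFP and 9.79, 22.7 and 13.8 FPKM with irisin. The log2 fold changes were 1.43 ± 0.35 for Cd163, 1.20 ± 0.28 for Timd4 and 1.44 ± 0.27 for Mgl2. For Mgl2, irisin library 1 was the lowest of the irisin libraries. Of the DC-SIGN family of C-type lectins, Cd209a, Cd209d, Cd209f and Cd209g were all apart and higher, with log2 fold changes from 1.09 (Cd209a) to 1.36 (Cd209d), and reads shared between such relatives make single members uncertain. Over the list of 20 resident and alternatively activated macrophage genes, all 20 tested, 14 were higher (47.7% of all genes were) and 6 lower, 7 were apart and higher (6.78% of all genes) and 1 (Stab1) apart and lower (7.18% of all genes). Timd4 is 1 of those 7. The median log2 fold change was 0.22 against -0.01 for all genes. The other members varied. The mannose receptor Mrc1 measured 54.5, 45.8 and 56.1 FPKM with GFP and 46.7, 23.8 and 36.1 FPKM with irisin (log2 -0.59 ± 0.25). The folate receptor Folr2 was at -0.55 on the log2 scale, and Clec10a and Arg1 overlapped between the groups. F13a1 (log2 1.06) and Cbr2 (log2 0.82) were higher, with overlapping groups.

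The direction of these differences did not rest on irisin library 2 alone, although limma called 0 genes without that library. Without it the log2 fold change of Retnla was 2.44, of Ccl24 1.66, of Lyve1 1.53 and of Cd163 1.10, and the list median was 0.49. Without irisin library 3, limma called Retnla (log2 4.05, adjusted p = 0.0126), Ccl24 (log2 2.17, adjusted p = 0.0126), Lyve1, Cd209d and Cd209f (adjusted p = 0.0492 to 0.0498), as well as Fmc1, C6, Ropn1l, mt-Co2 and Fcor on the higher side and Gm15928 and Gm17545 on the lower side. In chow-fed eWAT, where all 6 libraries of both vectors are pooled here as a range, Retnla lay at 571 to 1139.6 FPKM, Ccl24 at 11.3 to 19.1 FPKM, Lyve1 at 37.3 to 58 FPKM and Cd163 at 22.7 to 47.8 FPKM. The irisin HFD libraries lay between the GFP HFD libraries and the chow libraries for Ccl24 and Lyve1 and for Retnla irisin library 2 lay above the chow range, as Cd163 lay within it in irisin libraries 1 and 2. This view and the vector comparison share the GFP HFD libraries. The effect of the vector differed between diets by a log2 value of 3.19 for Retnla and 1.66 for Ccl24, neither called (adjusted p = 0.902 for both).

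**Figure D1:**
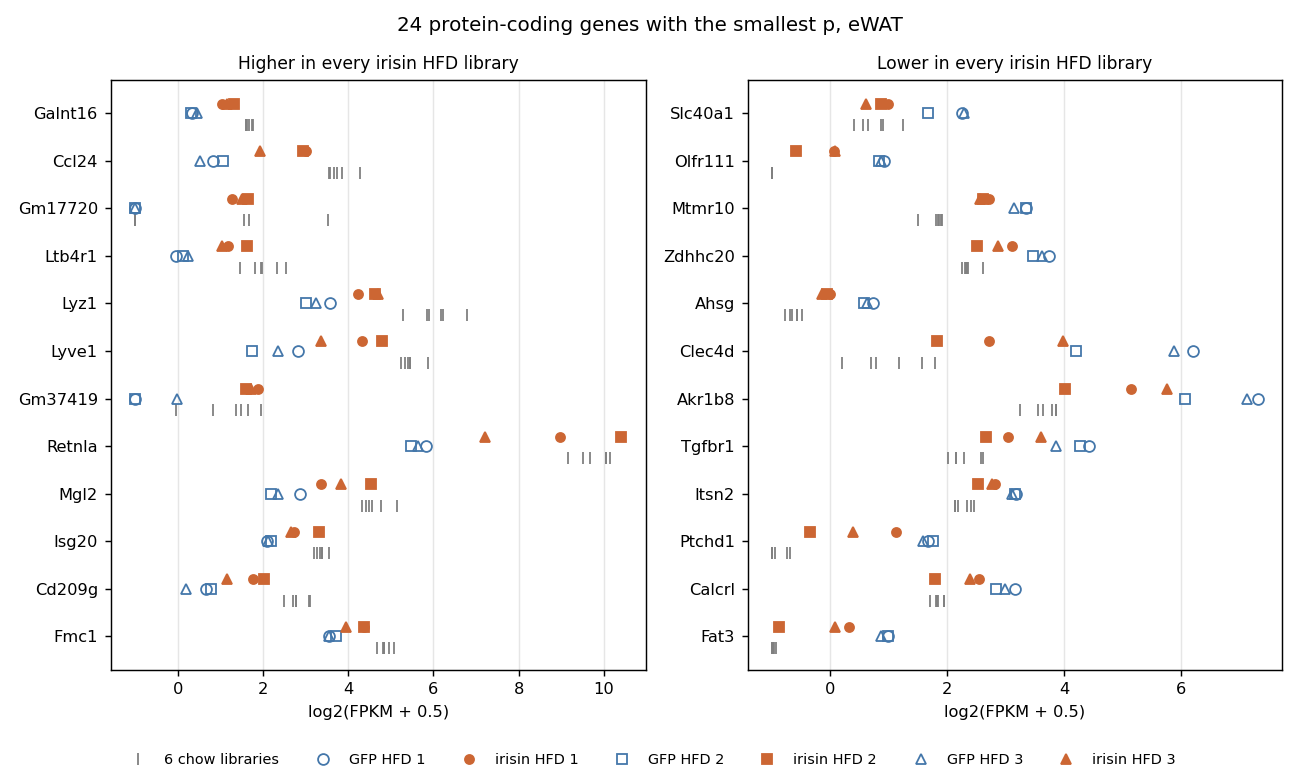
The 24 protein-coding genes with the smallest p among those whose groups are apart, 12 in each direction, with log2(FPKM + 0.5) on the x axis and 1 symbol per eWAT library (open, GFP HFD; filled, irisin HFD; grey ticks, the 6 chow libraries of both vectors). Retnla, Ccl24, Lyve1, Mgl2 and Cd209g are higher in each irisin library than in each GFP library, and Slc40a1, Clec4d and Akr1b8 lower.

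Because STAT6 is the known regulator of Retnla, the promoters of the resident macrophage genes were searched for its motif, TTC and GAA with any 4 bases between them, which reads the same on both strands, in the 250 bases before the RefSeq start (GRCm38.p6). Of 9 genes searched for, 7 had a promoter entry and 1 of those, Retnla, held the motif, which 5.85% of all 32851 promoters hold in a window of that length. Among the redox genes described further on, which were lower with irisin, 1 of 6 entries (Blvrb) held it too. Ccl24 and Lyve1 are among the genes with no entry. The stretches from 200 to 51 bases before the start are shown for Retnla, Mgl2 and Cd163, to set the promoter with the motif beside 2 without it, with the motif in capitals: Retnla at chr16:48842409-48842558, Mgl2 at chr11:70130157-70130306 and Cd163 at chr6:124304451-124304600, all on the plus strand. In Retnla the motif covers positions -145 to -136. A match describes the letters only.
Retnla: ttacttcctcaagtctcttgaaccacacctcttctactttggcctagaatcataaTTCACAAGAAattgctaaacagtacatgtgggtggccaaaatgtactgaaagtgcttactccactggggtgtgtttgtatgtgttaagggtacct
Mgl2: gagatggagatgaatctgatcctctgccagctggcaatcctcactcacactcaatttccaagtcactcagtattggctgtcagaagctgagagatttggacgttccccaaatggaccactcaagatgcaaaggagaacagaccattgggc
Cd163: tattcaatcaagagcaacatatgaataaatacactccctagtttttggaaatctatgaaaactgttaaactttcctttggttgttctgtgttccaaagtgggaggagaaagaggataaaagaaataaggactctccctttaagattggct

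Other genes near the top of the higher side have varied functions. Galnt16, which starts mucin-type sugar chains on proteins, measured 0.764, 0.734 and 0.883 FPKM with GFP and 1.55, 2.02 and 1.75 FPKM with irisin (log2 0.81 ± 0.12, adjusted p = 0.266). It overlaps several antisense genes, and the sources used here do not say whether the counting used strand. Ltb4r1, the receptor for leukotriene B4, measured 0.480, 0.588 and 0.682 FPKM with GFP and 1.78, 2.58 and 1.56 FPKM with irisin. Isg20, an interferon-induced exonuclease, measured 3.76, 4.06 and 3.82 FPKM with GFP and 6.10, 9.46 and 5.86 FPKM with irisin, and Fmc1, which helps assemble the mitochondrial ATP synthase, measured 11.3, 12.7 and 11.2 FPKM with GFP and 20.3, 20.2 and 14.9 FPKM with irisin. The groups were apart for each of these 4 genes. Lyz1, which encodes a lysozyme, measured 11.5, 7.55 and 8.95 FPKM with GFP and 18.2, 24.1 and 25.7 FPKM with irisin. Its near-identical neighbour Lyz2, a pan-macrophage gene, was lower, at 3155, 2024 and 2409.8 FPKM with GFP and 1843, 654 and 1978 FPKM with irisin. Reads that fit both genes cannot be assigned with certainty. 2 further entries rest on very few reads: Gm37419, which lies inside Bcl6 on the other strand, had 0, 0 and 1 reads with GFP and 7, 4 and 5 with irisin, and Gm17720 had 1 read in each irisin library, and both passed the filter only through the irisin libraries.

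Macrophage genes in general were lower with irisin, most of all in irisin library 2. All 20 pan-macrophage genes were tested: 19 were lower (52.3% of all genes were), 1 higher and 2 apart and lower (7.18% of all genes), with a median log2 fold change of -0.90. Without irisin library 2 the median was -0.25, with 17 lower and 3 higher. Adgre1, which encodes F4/80, measured 169, 179 and 123 FPKM with GFP and 115, 32.3 and 145 FPKM with irisin, so only irisin library 2 was far below the rest (log2 -0.92 ± 0.43; -0.26 without that library). Ms4a7, a membrane protein of macrophages, measured 25.4, 25 and 18 FPKM with GFP and 16.2, 2.34 and 15.9 FPKM with irisin and was apart, as was Lyz2. In bulk tissue, fewer cells of a type and less RNA per cell cannot be told apart.

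Genes of lipid-associated macrophages were lower as well, 21 of 22 tested (52.3% of all genes), 3 of them apart (7.18% of all genes), with a median of -0.86 and, without irisin library 2, of -0.37 with 21 still lower. The 3 are Spp1, Cd9 and Cd36, and Cd36 (log2 -0.22) is also on the adipocyte list. The list's per-library score, explained with the plot of list scores, was 0.27 in irisin library 3, inside the GFP range (0.13 to 0.75). Spp1, osteopontin, measured 144, 53.9 and 381 FPKM with GFP and 32.3, 4.75 and 49.7 FPKM with irisin, with groups apart. Its log2 fold change was -2.81 ± 0.83 (-1.83 without irisin library 2). The 381 FPKM is from GFP library 3, which holds epididymal transcripts, and their part in this value was not tested. Cd9, a tetraspanin of these cells, measured 163, 98.5 and 128 FPKM with GFP and 78.9, 26.1 and 97.9 FPKM with irisin and was also apart. Trem2, the lipid-sensing receptor that defines them, measured 119, 83.3 and 71.3 FPKM with GFP and 60.6, 10.4 and 81.2 FPKM with irisin, and irisin library 3 lay inside the GFP range. The matrix protease Mmp12 measured 498, 139 and 377 FPKM with GFP and 84.1, 17.2 and 197 FPKM with irisin, also overlapping. Chow libraries held at most 4.69 FPKM of Trem2 and 1.20 FPKM of Mmp12, less than any HFD library.

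**Figure D2:**
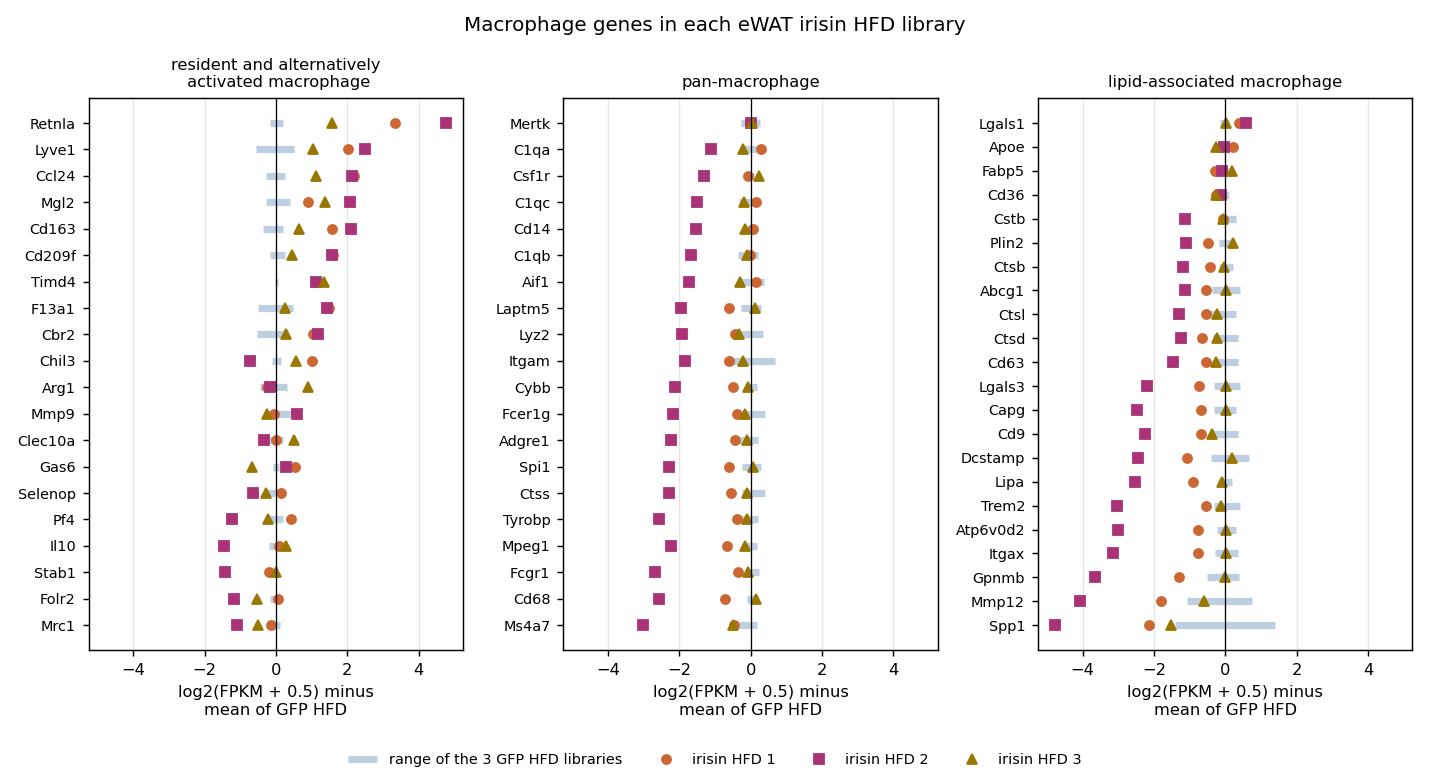
Log2(FPKM + 0.5) in each irisin HFD library minus the mean of the 3 GFP HFD libraries (x axis) for the tested genes of the resident, pan-macrophage and lipid-associated lists, with the bar showing the range of the GFP libraries. Irisin library 2 (squares) is the lowest irisin library for most pan-macrophage and lipid-associated genes and the highest for Retnla, Lyve1, Mgl2 and Cd163.

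Lysosomal and cell cycle genes were lower too. Of 28 lysosomal genes, 26 were lower (52.3% of all genes), 4 apart and lower (7.18% of all genes) and 1 apart and higher (6.78% of all genes). The median was -0.48 and, without irisin library 2, -0.23. The proton pump subunit Atp6v1a measured 92.4, 66.5 and 73.8 FPKM with GFP and 55.2, 32.7 and 60.6 FPKM with irisin, with groups apart. Of 25 cell cycle genes all were lower, with a median of -0.52, but without irisin library 2 the median was -0.08 and 20 were lower. Mki67, the proliferation marker, measured 8.01, 7.83 and 7.05 FPKM with GFP and 4.87, 1.61 and 6.01 FPKM with irisin, with groups apart. Irisin library 3 was the closest of the irisin libraries to the GFP range for Atp6v1a and Mki67. Over the whole lists it was not below the GFP libraries. Its per-library score was 0.43 for cell cycle genes, above the GFP libraries (0.15 to 0.39). For lysosomal genes its score was 0.16, inside the GFP range (0.024 to 0.48).

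A group of redox and iron-handling genes was lower in the irisin libraries and did not depend on irisin library 2. This list of 28 genes, many known as targets of the factor NRF2, was drawn up after the values were seen, so its count is a description: 27 were tested, 19 were lower (52.3% of all genes), 8 higher and 7 apart and lower (7.18% of all genes), with a median of -0.63 (-0.60 without irisin library 2, -0.91 without GFP library 2). Prdx1, a peroxidase (chr4:116685544-116700822, plus strand), measured 702, 235 and 495 FPKM with GFP and 164, 139 and 224 FPKM with irisin, a log2 fold change of -1.33 ± 0.32. Gclm, a subunit of the enzyme that starts glutathione synthesis, measured 19.4, 9.36 and 23 FPKM with GFP and 7.94, 8.24 and 9.26 FPKM with irisin, and Blvrb, biliverdin reductase B, measured 50.5, 29.4 and 41.3 FPKM with GFP and 25.3, 18.8 and 26.2 FPKM with irisin. In each, GFP library 2 lay just above the irisin libraries and GFP libraries 1 and 3 well above. The aldo-keto reductase Akr1b8 measured 159, 66.6 and 138 FPKM with GFP and 34.9, 15.7 and 53.3 FPKM with irisin (log2 -1.86 ± 0.42). Slc40a1, ferroportin, the iron exporter (chr1:45908068-45926523, minus strand), measured 4.28, 2.69 and 4.35 FPKM with GFP and 1.48, 1.32 and 1.03 FPKM with irisin, a log2 fold change of -1.25 ± 0.24 (adjusted p = 0.352). Glutathione transferases and other members such as Gstm1, Mgst1 and Gsta3 were on the higher side (log2 0.35, 0.38 and 0.50).

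Without GFP library 2, limma called 5 genes, all lower with irisin, and 4 of them are on this list: Prdx1 (log2 -1.77), Gclm (-1.27), Ptgr1 (-1.99) and Gsr (-1.02), each with an adjusted p of 0.0376 to 0.0381. Because the list was drawn up after the values of these libraries were seen, this overlap gives it no separate support. The remaining called gene was Cd5l, a secreted macrophage protein, which measured 18.2, 3.39 and 26.8 FPKM with GFP and 2.87, 3.25 and 5.39 FPKM with irisin. In all 5 the value of GFP library 2 was close to or inside the irisin range, while libraries 1 and 3 were higher, so the 3 GFP libraries divide into 2 levels. In the chow libraries Prdx1 lay at 123 to 151 FPKM and Akr1b8 at 8.93 to 14 FPKM. GFP library 2 was also the lowest GFP library for the lipid-associated macrophage list, with a summed FPKM of 13339, 10196 and 11032 in GFP libraries 1, 2 and 3, and its part in the redox values was not tested.

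**Figure D3:**
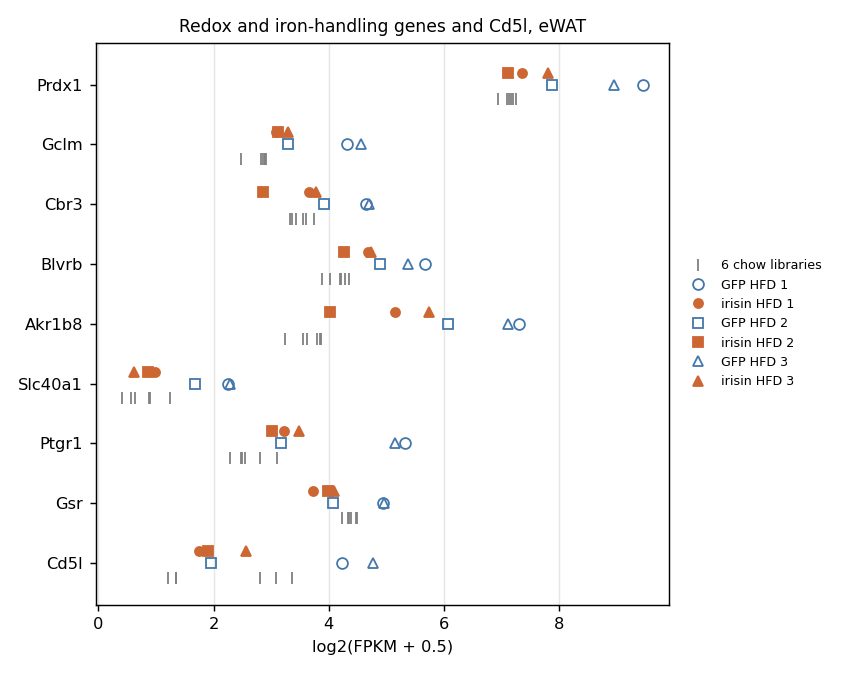
Log2(FPKM + 0.5) of 9 genes (x axis) in the 3 GFP HFD (open), 3 irisin HFD (filled) and 6 chow eWAT libraries (ticks). GFP library 2 (open square) lies next to the irisin libraries for Prdx1, Gclm, Ptgr1, Gsr and Cd5l.

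NRF2 binds antioxidant response elements, and the promoters of 8 of these genes were searched for the core TGACNNNGC on both strands in the 250 bases before the RefSeq start. A promoter entry was present for 6, and 2 of the 6, Prdx1 and Gclm, held the core, which 10.2% of all promoters hold. Among the resident macrophage genes, which were higher with irisin, 2 of 7 entries (Cd209d and Cd209g) held it too. Both stretches, from 200 to 51 bases before the start, are shown with the core in capitals (it lies on the opposite strand in each): Prdx1 at chr4:116685399-116685548 and Gclm at chr3:122245357-122245506, plus strand, GRCm38.p6. The core covers positions -133 to -125 in Prdx1 and -134 to -126 in Gclm.
Prdx1: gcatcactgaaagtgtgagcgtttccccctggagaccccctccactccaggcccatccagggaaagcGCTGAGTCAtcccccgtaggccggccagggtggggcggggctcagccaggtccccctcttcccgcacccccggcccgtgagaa
Gclm: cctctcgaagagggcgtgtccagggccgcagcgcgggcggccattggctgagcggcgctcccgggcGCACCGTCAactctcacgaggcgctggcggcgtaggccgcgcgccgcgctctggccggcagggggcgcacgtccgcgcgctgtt

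The remaining genes of the lower side with the smallest p include receptors and trafficking proteins. Clec4d, a C-type lectin of myeloid cells, measured 72.8, 18 and 58.2 FPKM with GFP and 6.02, 3.06 and 15.2 FPKM with irisin (log2 -2.59 ± 0.56). Tgfbr1, a receptor for transforming growth factor beta, measured 20.9, 18.7 and 14 FPKM with GFP and 7.74, 5.84 and 11.6 FPKM with irisin, and Calcrl, part of the receptors for adrenomedullin and calcitonin gene-related peptide, measured 8.44, 6.64 and 7.45 FPKM with GFP and 5.33, 2.97 and 4.74 FPKM with irisin. Mtmr10 was tight within groups, 9.65, 9.63 and 8.36 FPKM with GFP and 6.09, 5.62 and 5.41 FPKM with irisin, as was the palmitoyltransferase Zdhhc20, 12.9, 10.5 and 11.8 FPKM with GFP and 8.08, 5.17 and 6.77 FPKM with irisin. Itsn2, an endocytic scaffold, Ahsg, the plasma protein fetuin-A, Ptchd1, Fat3 and Olfr111 complete the 12, with log2 fold changes from -1.28 (Ptchd1) to -0.44 (Itsn2). All 12 were apart by the rule that chose them, and Ahsg passed the filter only through the GFP libraries.

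Adipocyte genes were higher with irisin, again most of all in irisin library 2. Of 30 genes of adipocyte identity and lipid storage, all tested, 28 were higher (47.7% of all genes), 14 of them apart (6.78% of all genes), and 1 (Cd36) was apart and lower, with a median log2 fold change of 0.51 (0.26 without irisin library 2, with 24 higher). The list summed to 10968, 11796 and 10267 FPKM in GFP libraries 1 to 3 and 13902, 29129 and 11646 FPKM in irisin libraries 1 to 3, and pan-macrophage genes, summed the same way, to 7898, 6103 and 5883 FPKM in GFP libraries 1 to 3 and 5224, 1723 and 5802 FPKM in irisin libraries 1 to 3. Irisin library 2 thus had the highest adipocyte and the lowest macrophage sum, and the part of this opposite shift in single genes was not tested. Adipoq, adiponectin, measured 616, 716 and 615 FPKM with GFP and 952, 1835 and 649.9 FPKM with irisin, with irisin library 3 inside the GFP range (log2 0.69 ± 0.31, adjusted p = 0.498). Lep, leptin, measured 842, 891 and 727 FPKM with GFP and 1057, 1462 and 916 FPKM with irisin, with groups apart (log2 0.46 ± 0.26). Bscl2, seipin, which shapes lipid droplets, measured 32.6, 34.8 and 30.6 FPKM with GFP and 44.6, 56 and 39.9 FPKM with irisin and was apart, as was Retn, resistin, at 74.2, 95.1 and 72.4 FPKM with GFP and 171, 575 and 104 FPKM with irisin. Cfd, adipsin, measured 155, 259.5 and 193 FPKM with GFP and 429, 1812 and 259 FPKM with irisin, and its irisin library 3 lay inside the GFP range. The list of adipokines, which shares genes such as Retn, Cfd and Lep with it, had 18 of 21 tested members higher (47.7% of all genes), 7 of them apart (6.78% of all genes), and a median of 0.35. Its Rbp4, the retinol carrier, measured 114, 139.5 and 127 FPKM with GFP and 228, 751 and 172 FPKM with irisin.

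Most genes of the metabolic lists were higher with irisin as well, where 47.7% of all genes were higher. De novo lipogenesis had 18 of 22 genes higher (median 0.39, 0.20 without irisin library 2), with Thrsp, a regulator of lipogenesis, at 78.6, 95 and 72.1 FPKM with GFP and 183, 667 and 88.5 FPKM with irisin. Fatty acid oxidation had 18 of 19 higher (median 0.40, 0.16 without that library). All 24 genes of the tricarboxylic acid cycle and branched-chain catabolism were higher (median 0.40, 0.11 without that library), among them citrate synthase, Cs, at 47.4, 51.6 and 47.7 FPKM with GFP and 57.9, 76.2 and 53 FPKM with irisin. All 40 nuclear genes of oxidative phosphorylation were higher (median 0.24, 0.07 without that library), with Ndufb3, a complex I subunit, at 95.4, 98.7 and 83.2 FPKM with GFP and 139, 212 and 107 FPKM with irisin. All 13 genes encoded in mitochondria were higher (median 0.44), but none was apart (14.0% of all genes in either direction). The median was 0.05 without irisin library 2 and -0.08 without that library and GFP library 3. The per-library score of the nuclear oxidative phosphorylation list, explained with the plot of list scores, was 0.48 in irisin library 2 and -0.19 in irisin library 3, the latter inside the GFP range. In irisin library 3 the tricarboxylic acid cycle and branched-chain list scored -0.24 and the mitochondrial encoded list -0.50. Both were the lowest of the 6 libraries. Fatty acid oxidation scored -0.14 there, inside the GFP range, and de novo lipogenesis -0.04, above the GFP libraries (-0.37 to -0.07).

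Thermogenic genes were mostly higher by small amounts. Of 25 listed, 19 were tested, and 15 were higher (47.7% of all genes). None was apart (14.0% of all genes in either direction), and the median was 0.14 (0.095 without irisin library 2). Ucp1, the uncoupling protein of brown and beige adipocytes, did not pass the filter and measured 0.298, 0.787 and 0.239 FPKM with GFP and 0.158, 0 and 0.234 FPKM with irisin, at or under 1 FPKM throughout. Cidea, a lipid droplet protein of such adipocytes, measured 0.628, 2.01 and 2.16 FPKM with GFP and 2.89, 6.73 and 1.37 FPKM with irisin, and the groups overlapped. Insulin signalling genes were near the middle, with 13 of 20 higher, a median of 0.09 and, without irisin library 2, of -0.03. Slc2a4, the insulin-sensitive glucose transporter GLUT4, measured 12.5, 16.1 and 11.3 FPKM with GFP and 15.2, 65.3 and 16.1 FPKM with irisin, where irisin library 2 alone was far above the rest.

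**Figure D4:**
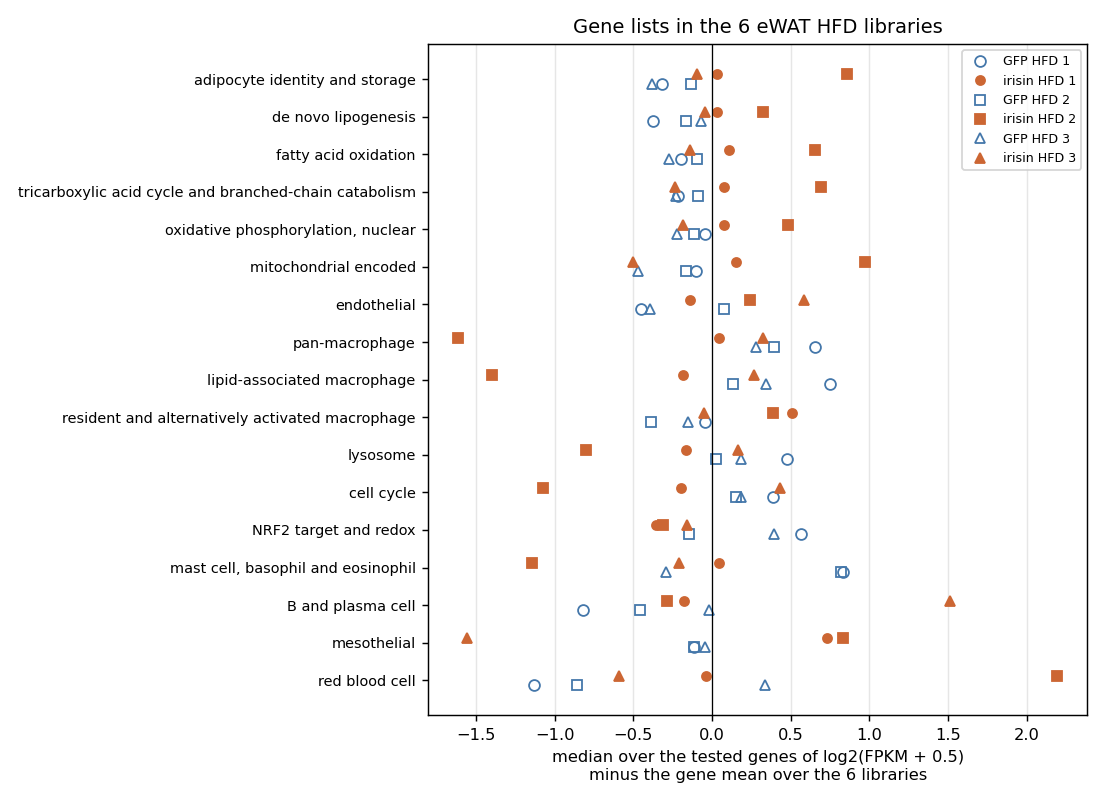
Score of 17 gene lists in each of the 6 eWAT HFD libraries: the median over tested genes of log2(FPKM + 0.5) minus the gene's mean over the 6 libraries (x axis; open, GFP; filled, irisin). Irisin library 2 is the highest for adipocyte and mitochondrial lists and the lowest for pan-macrophage, lipid-associated, lysosome and cell cycle lists, and irisin library 3 is the highest for B and plasma cell genes and the lowest for mesothelial genes.

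The transcripts of interleukin 33 and its receptor were lower on average with irisin, within the spread between libraries. Il33 measured 5.72, 4.80 and 7.35 FPKM with GFP and 5.74, 3.39 and 2.61 FPKM with irisin, with overlapping groups and a log2 fold change of -0.59 ± 0.41 (adjusted p = 0.582). Il1rl1, which encodes ST2, measured 4.22, 4.93 and 1.83 FPKM with GFP and 3.65, 1.32 and 2.85 FPKM with irisin, also overlapping (log2 -0.41 ± 0.34, adjusted p = 0.636). The list of 25 genes of this pathway and type 2 signalling had 19 tested, 13 lower and 6 higher, with a median of -0.25 and 1 member apart in each direction, no more than the share of all genes that were apart (6.78% higher, 7.18% lower). Tslp, a cytokine of epithelial and stromal cells that favours type 2 responses, was the higher one, 0.806, 1.14 and 0.987 FPKM with GFP and 3.02, 1.27 and 2.08 FPKM with irisin (log2 0.78 ± 0.23), and the adaptor Traf6 the lower one, 3.35, 3.58 and 3.77 FPKM with GFP and 3.25, 2.46 and 2.68 FPKM with irisin. Il13ra1, a chain of the receptor for interleukins 4 and 13, measured 5.38, 5.12 and 6.28 FPKM with GFP and 5.30, 3.23 and 4.19 FPKM with irisin. Il5, Il9, Il13 and Il25 did not pass the filter. Foxp3, the factor of regulatory T cells, measured 0.0611, 0.0440 and 0.168 FPKM with GFP and 0.0519, 0.126 and 0.176 FPKM with irisin and did not pass it either. Of 18 regulatory T cell genes 9 were tested, 5 higher and 4 lower, with none apart, and a difference in these cells was not detectable from Foxp3 at this depth.

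Genes of the irisin precursor (FNDC) family and genes proposed to receive or process irisin, taken as 1 list, were mostly lower with irisin, by a small median. Of 17 listed, 13 were tested, 10 lower (52.3% of all genes), 3 higher and 3 apart and lower (7.18% of all genes), with a median of -0.11. The number lower was 12 without irisin library 2 and 8 without irisin library 3. Itgav, the αV integrin chain, measured 10.4, 9.76 and 10.1 FPKM with GFP and 7.82, 4.64 and 6.01 FPKM with irisin (log2 -0.70 ± 0.22, adjusted p = 0.498). Adam10, a shedding protease, measured 27.4, 24.9 and 31.1 FPKM with GFP and 24, 18.7 and 20.2 FPKM with irisin, and Fndc3a, of the FNDC family, measured 7.76, 8.67 and 10.3 FPKM with GFP and 7.65, 6.29 and 5.04 FPKM with irisin. The αV partner Itgb5 was at 109, 109 and 82.4 FPKM with GFP and 94.6, 81.2 and 100.4 FPKM with irisin, which overlap.

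Other cell types differed less evenly, set against 47.7% of all genes higher and 52.3% lower. Endothelial genes were all higher, 17 of 17 tested, with a median of 0.43 that was 0.44 without irisin library 2 and 0.30 without irisin library 3, but 2, Vwf and Egfl7, were apart (6.78% of all genes). Cldn5, a tight junction protein of vessels, measured 44.5, 73.2 and 33.4 FPKM with GFP and 55.8, 128 and 99.2 FPKM with irisin, and Kdr, a receptor for vascular endothelial growth factor, measured 5.19, 7.79 and 5.77 FPKM with GFP and 6.95, 13.8 and 10.5 FPKM with irisin. In both, GFP library 2 lay above irisin library 1. Of 12 pericyte and smooth muscle genes tested, 9 were higher (median 0.32), with the pericyte marker Rgs5 at 15.9, 25.1 and 14.6 FPKM with GFP and 24.8, 33.1 and 31.3 FPKM with irisin. Of 32 matrix genes 18 were higher and 14 lower (median 0.06). Elastin, Eln, was apart, at 12.2, 12 and 13.4 FPKM with GFP and 15, 27.8 and 23.6 FPKM with irisin, as was Sparc, at 1061, 1199.5 and 1105 FPKM with GFP and 1430.5, 1639 and 1382 FPKM with irisin. Red blood cell genes, 5 of which were tested and all higher (median 1.08), summed to 2543 FPKM in irisin library 2 and to 248 to 755 FPKM in the others, and the median was 0.26 without that library.

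Among leukocytes other than macrophages, genes of mast cells, basophils and eosinophils were lower for 10 of 13 tested (52.3% of all genes). The median was -0.89 and, without irisin library 2, -0.53. Cma1, a mast cell protease, measured 77.6, 68.3 and 23.7 FPKM with GFP and 31.7, 6.13 and 23.4 FPKM with irisin, and Fcer1a, the high-affinity IgE receptor chain, measured 7.69, 6.92 and 2.97 FPKM with GFP and 3.11, 0.504 and 2.43 FPKM with irisin. GFP library 3 lay near the irisin libraries for both, so the groups overlapped. T and NK cell genes were lower for 12 of 14 tested (52.3% of all genes), with none apart (14.0% of all genes in either direction). Their median was -0.44 and, without irisin library 2, -0.15. B and plasma cell genes were higher for 10 of 11 tested (47.7% of all genes), with a median of 1.12 and of 0.32 without irisin library 3. Their most abundant member, the immunoglobulin chain Ighm, measured 255, 293 and 288 FPKM with GFP and 419.9, 662 and 818 FPKM with irisin, with groups apart, whereas Ighg2c measured 0.138, 0.309 and 1.86 FPKM with GFP and 1.33, 0.433 and 46.7 FPKM with irisin, high in irisin library 3 alone.

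Inflammatory genes were mostly on the lower side, as were 52.3% of all genes. Of 22 cytokine and acute-phase genes, 16 were tested, 11 lower and 5 higher (median -0.43), and without irisin library 2 the median was -0.02. Tlr4, the endotoxin receptor, measured 9.80, 9.10 and 7.55 FPKM with GFP and 7.31, 4.84 and 4.32 FPKM with irisin and was apart and lower, and the acute-phase protein Orm1 measured 120.0, 134 and 110.4 FPKM with GFP and 221, 400.1 and 145 FPKM with irisin and was apart and higher. Of 23 chemokine genes tested 19 were lower (median -0.39, -0.12 without irisin library 2), among them Cxcl14 at 14.8, 12.8 and 16.2 FPKM with GFP and 8.62, 1.53 and 9.99 FPKM with irisin and Ccl4 at 4.43, 3.19 and 3.39 FPKM with GFP and 1.88, 0.218 and 2.51 FPKM with irisin, both apart. Of 29 interferon response genes tested 21 were lower (median -0.21), with the antiviral gene Rsad2 at 4.35, 7.41 and 6.74 FPKM with GFP and 3.24, 3.10 and 4.75 FPKM with irisin, where the highest irisin library exceeds the lowest GFP library.

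**Figure D5:**
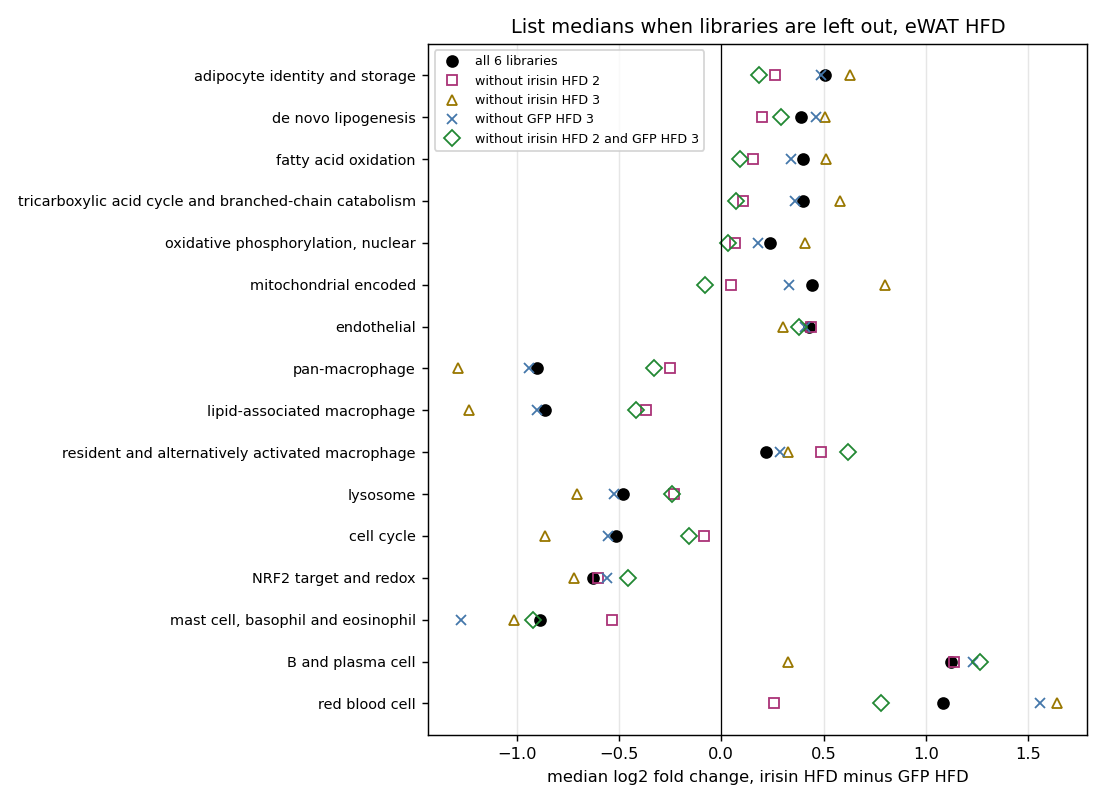
Median log2 fold change (x axis, irisin HFD minus GFP HFD) of 16 gene lists with all 6 eWAT libraries and with libraries left out. The endothelial and redox medians move little without irisin library 2, whereas the pan-macrophage median goes from -0.90 to -0.25 and the B and plasma cell median from 1.12 to 0.32 without irisin library 3.

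The vector effect on HFD was also set beside that in the other groups of the study. In chow-fed eWAT the median log2 effect of irisin was -0.06 for the pan-macrophage list, 0.10 for the adipocyte list, 0.08 for the resident macrophage list and 0.77 for the endothelial list. In inguinal fat on HFD the same medians were -0.47, 0.40, -0.09 and 0.18. The B and plasma cell list, with a median of 1.12 in eWAT on HFD, had the opposite sign in both: -1.68 in chow-fed eWAT and -2.29 in inguinal fat on HFD. The mast cell, basophil and eosinophil list, at -0.89 in eWAT on HFD, was at 0.26 and -0.38, and the redox list, at -0.63, was at 0.02 and 0.19. These differences between groups were not tested for the lists. The effect differed between diets in limma for 1 of 14855 genes (0.00673%; 573 at an unadjusted p under 0.05), Gm17720, and between the fat depots for 0 genes (0%; 334 at an unadjusted p under 0.05). Retnla measured 209.5 to 704 FPKM in the GFP and 424 to 711 FPKM in the irisin libraries of inguinal fat, which overlap. Fndc5 itself lay between 0.163 and 0.258 FPKM with GFP and between 0.392 and 3.91 FPKM with irisin in inguinal fat on HFD (adjusted p = 0.806).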

How the data were processed

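RNA of epididymal fat was sequenced as polyA-selected libraries, per the labels' protocols. The submitters' processing notes name the aligner HISAT2 2.0.5 and the counter featureCounts 1.5.0-p3. The strand setting and the genome build are not given in the sources used here, and 98.3% of the 54495 gene identifiers shared with GENCODE M21 (GRCm38) had the same position, so gene coordinates are GRCm38. The authors deposited FPKM values per gene and library. Whole reads could be recovered from them (100% of values within 0.01 of a whole read), 15091342 to 18688706 per HFD library.

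From these values log2(FPKM + 0.5) was computed, which understates the change of low genes, for the 14855 genes with at least 0.5 FPKM in 3 of the 6 HFD libraries. The 12 eWAT libraries were fitted together in limma 3.58.1 (R 4.3.3; 4 group means, variance trend), irisin HFD minus GFP HFD was tested two-sided, and p-values were adjusted by Benjamini-Hochberg over all 14855 genes. A gene was called at an adjusted p under 0.05. The fit was also run on simulated data with independent noise and no library that stands apart. That run does not cover libraries that stand apart, as some do here. Tables and figures used Python 3.11.15 and matplotlib 3.10.9.

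Genes named in the text are Fndc5, Il33, Il1rl1 and 6 markers, 12 protein-coding genes in each direction with groups apart and the smallest p, up to 3 members of each list with the smallest p, and the 6 most deviating genes each way of irisin library 2 and GFP library 3. Other genes named with values were chosen after their values were seen. The members and the 42 gene lists were chosen with earlier results of these data known, and 1 more list, of redox genes, was added after the values were seen. Alternatives covered the pseudocount, the expression filter, normalization, weights, a replicate block, recovered reads and leaving out libraries. Promoter sequences are from RefSeq (GRCm38.p6).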

Additional observations from a re-analysis of the deposited data

Results flagged for a closer look

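The effect of the vector on Gm17720 differed between HFD and chow in eWAT, by 5.74 on the log2 scale (limma interaction term, adjusted p = 0.0145), the only gene called for that difference. Gm17720 has 1 recovered read in each of the 3 irisin HFD libraries and 0 in each of the 3 GFP HFD libraries, and it overlaps Zfp612 on the other strand. Among genes with at least 10 recovered reads in 3 of the 6 HFD libraries, 0 of 14045 were called by limma for that difference (545 at an unadjusted p under 0.05).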

How the results depend on the processing

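The count of genes called, 0, became 2 with no expression filter (Gm24798 and Gm38074, on 1 read per irisin library), 1 with a pseudocount of 0.1 (Gm17720), 1 without irisin library 2 and GFP library 3 (Mir221, lower), and 0 to 12 when single libraries were left out, with 12 without irisin library 3 and 5 without GFP library 2. The count at an unadjusted p under 0.05, 1472, was 860 with the 6 HFD libraries fitted alone, 975 with array weights, 458 without irisin library 2 and GFP library 3, 469 without both in the 6 libraries alone (chosen after seeing the data), and 598 to 3464 when single libraries were left out. With the replicate number as a block, 0 genes were called and 1637 stood at an unadjusted p under 0.05. Same-numbered libraries correlated in their deviations from the group means by 0.07, 0.10 and 0.01, and not every library correlated best with its own number. With 3 libraries per group, these values cannot show whether same-numbered libraries share a batch. The 1 gene called for the vector by diet difference became 0 without irisin library 2 and GFP library 3, and 0 among genes with at least 10 reads (chosen after seeing the data). Some log2 fold changes changed sign. The mitochondrial encoded list (median) was -0.077 without both. The insulin signalling list (median) was -0.032 to 0.28 when 1 library was left out and -0.080 without both. The extracellular matrix and fibrosis list (median) was -0.00076 to 0.11 when 1 library was left out. Arg1 was -0.21 to 0.36 when 1 library was left out. Clec10a was -0.17 to 0.25 when 1 library was left out and -0.0011 with voom. Fndc5 was -0.29 to 0.62 when 1 library was left out and -0.60 without both. Gsta3 was -0.076 to 1.03 when 1 library was left out and -0.037 without both. Lcn2 was 0.012 without both. Upk3b was -0.58 to 1.14 when 1 library was left out, -0.58 without both, -0.052 with voom, -0.042 with quantile normalization. Wt1 was -0.17 to 0.52 when 1 library was left out and -0.10 without both. Values without both were the same in the 6 HFD libraries alone. The cause of these changes was not tested, except where fewer libraries or genes were fitted by construction. Over the 111 tested genes named in the text and 20 settings, 2166 of 2211 values kept their direction and their side of the threshold, 19 became called and 26 changed sign. Genes near 1 FPKM rest on 27.8 to 38.6 reads per library for 2000 bases, and shorter genes on fewer.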

Other observations

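Several gene groups showed no common direction between the vectors, where 47.7% of all genes were higher and 52.3% lower with irisin. Of 24 glycolysis and hypoxia genes tested 11 were higher and 13 lower with irisin. Among them 3 were apart and higher (6.78% of all genes) and 1 apart and lower (7.18% of all genes). Adm, the vasodilator adrenomedullin, measured 6.54, 7.30 and 5.15 FPKM with GFP and 8.76, 22.7 and 14.4 FPKM with irisin and was apart and higher. Slc2a1, the glucose transporter GLUT1, measured 10.1, 7.14 and 12.4 FPKM with GFP and 4.99, 3.54 and 8.72 FPKM with irisin. Of 17 clock genes 6 were higher and 11 lower, with none apart (14.0% of all genes in either direction). Of 20 complement genes 8 were higher and 12 lower, and C3ar1, a receptor for a complement fragment, measured 76.5, 71.4 and 70.2 FPKM with GFP and 47.9, 11.1 and 69.9 FPKM with irisin and was apart and lower. Of 20 endoplasmic reticulum stress genes 7 were higher and 13 lower, and 3 were apart and lower (7.18% of all genes). The folding enzyme Pdia3, 1 of these 3, measured 174, 152 and 162 FPKM with GFP and 137, 105 and 145 FPKM with irisin. Of 17 cholesterol synthesis genes 9 were higher and 8 lower, and 3 (Hmgcs1, Mvk and Sc5d) were apart and higher (6.78% of all genes). Mvk, mevalonate kinase, measured 11, 12.1 and 12.2 FPKM with GFP and 15.9, 18 and 13.7 FPKM with irisin.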
